A study of Mus musculus with 178 samples.

Results

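Blood of mice whose tumors did not respond to anti-PD-1 was compared between Day 17, on treatment, and Day 4, before the first injection of the antibody. The libraries were chosen by their labels: of the 178 libraries in the series, 29 are non-responder libraries of Day 4 and 30 are non-responder libraries of Day 17. Tags in the titles pair them into 29 mice with both days (58 libraries), and the Day 17 library of mouse 330 has no Day 4 partner and entered only the comparison with Day 9 and the summaries by day. Stable disease was counted as non-response in this series. The series asked how blood changes over the course of immune checkpoint blockade, with bulk mRNA sequencing of whole blood on Days 4, 9, 17 and 24 from 45 mice. All groups were C57BL/6J mice, aged 6 to 8 weeks and of wild-type genotype as far as the sources say, that carried 4MOSC1 cells, a line of carcinogen-induced oral squamous carcinoma, in the tongue or the buccal mucosa. All received antiPD1, and the methods give 1 injection every 3 days. The responders used for comparison share strain, age, tumor line and antibody and gave 14 mice with both days. No untreated or tumor-free mice were used here, so treatment, time, tumor growth and repeated bleeding cannot be told apart in what follows. In 1 mouse of the 4-digit tags described below, the Day 17 library carries the responder label and the others the non-responder label, and it was kept with the non-responders (5459 genes changed without it, 5474 with it).

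PD-1 is an inhibitory receptor on activated T cells, and antibodies against it release those cells from restraint, so blood taken during treatment is read for circulating T cells, B cells and myeloid cells. Tumors and inflammation also act on the bone marrow, which can send more neutrophils and monocytes into blood. Whole blood additionally holds reticulocytes, platelets and antibody-secreting cells, and haemoglobin mRNA is by far the most abundant of its messages. In bulk RNA, fewer cells of a type and less RNA per cell cannot be told apart.

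The 59 libraries held 31837362 to 82208651 estimated counts each, of which 68.7% to 87.4% were haemoglobin, which left 4655155 to 22174654 counts for all other genes. Levels are given as CPM, the usual unit of counts relative to library size, with library sizes scaled by the trimmed mean of M values (TMM) and without division by gene length, so they compare libraries and not genes. Haemoglobin stays in the total, so other genes have low CPM. The labelled tissue was borne out by abundant haemoglobin, B cell and T cell genes. Of the 58 paired libraries, 7 had a median correlation with the others under 0.96, 5 of Day 4 and 2 of Day 17, from 7 mice. In these mice the mitochondrial genome took a median of 6.59% of counts without haemoglobin on Day 4, against 4.48% in the other mice. Counts of genes over a whole comparison are given below without these mice where a fit without them moved the count by more than 1.5 times. Counts within lists are given so for some lists only. Of these 58 libraries none had a count of the Y-linked genes Ddx3y, Eif2s3y or Kdm5d, and all had counts of Xist, the pattern of female mice. The paper states that both sexes were used. Sex could therefore not check the pairs. The mice also fall into those with 3-digit tags (22 pairs) and those with 4-digit tags (7 pairs), a division that the labels show without saying what it stands for. Values within the tag series are printed for some lists and genes, not for all.

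Between Day 4 and Day 17, 5474 of 12386 genes tested changed (44.2%), 2571 higher (20.8%) and 2903 lower (23.4%), at an adjusted p of at most 0.05 by the quasi-likelihood test of edgeR with the mouse as a block. A list's count of higher or lower genes is to be read against these shares, and a count near them says nothing particular of the list. Most of these changes were small. A fold change of at least 1.5 was reached by 542 of them (4.38%), 485 higher (3.92%) and 57 lower (0.46%). On these counts the 1.5-fold changes were mostly increases, also with haemoglobin removed before scaling (502 higher and 52 lower), under RLE scaling (517 and 53) and by DESeq2 (526 and 56). Of the genes called, 31 were higher and 57 lower in all 29 mice. The median log2 fold change over all genes tested was -0.00021. On the deposited TPM values, which are relative to a total that haemoglobin dominates, limma called 238 genes higher and 6066 lower, with 16 higher and 256 lower at the 1.5-fold limit, and the median gene moved by -0.15, so the share of higher calls was 3.78% there and 47.0% on the counts. Unit, pseudocount and model differ together in that fit, and a small change of sign on TPM is to be read against the shift of the median gene. Changes below are therefore relative to the typical gene as scaled by TMM, and each gene group whose median changed sign on TPM is named where it is described. The 3-digit series alone called 5444 of 12428 genes (43.8%), 22.1% of all higher and 21.7% lower, and the 4-digit series alone 2114 of 12158 (17.4%), 10.4% higher and 6.95% lower. Of the 12099 genes tested in both series, which share no mice, 1095 were called in both, 115 of them in opposite directions and 980 in the same direction, the latter 18.3% of the calls of the 3-digit series and 46.7% of those of the 4-digit series.

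Constant genes of the switched immunoglobulin isotypes IgG and IgA showed the clearest increase. Ighg1 (chr12:113325240-113330523 of mm10), the constant region of IgG1, stood at 0.0274–0.488 CPM (median 0.203) on Day 4 and at 0.587–2.98 CPM (median 1.12) on Day 17. Every Day 17 library was above every Day 4 library, which held for 1 of the 12386 genes (0.00807%), and the log2 fold change was 2.43 ± 0.13 (SE, n = 29 mice, adjusted p = 1.61e-14). Ighg2b (chr12:113302965-113307933), the constant region of IgG2b, went from 0.285–1.16 CPM (median 0.620) to 1.11–3.04 CPM (median 1.61). It was higher on Day 17 in 29 of 29 mice (1.49 ± 0.09, adjusted p = 1.52e-13), although the lowest Day 17 library lay just under the highest of Day 4. Igha, the constant region of the mucosal isotype IgA, went from 2.81–11.0 CPM (median 6.56) to 5.18–20.6 CPM (median 12.4), with a log2 fold change of 0.90 ± 0.11 (adjusted p = 1.37e-07), and Jchain, which links IgA and IgM into polymers, from 0.388–2.20 CPM (median 1.30) to 1.12–5.45 CPM (median 3.02), with a log2 fold change of 1.10 ± 0.11 (adjusted p = 8.16e-09). Of the 7 heavy-chain constant and J chain genes tested, 5 were higher and 2 were lower, the latter the constant regions of IgM and IgD that naive B cells carry. The summed list fell, with medians of 490 CPM on Day 4 and 406 on Day 17, and was higher in 0 of 29 mice. The Ighg genes are similar in sequence, and estimated counts may have moved reads between them.

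Other plasma cell genes did not follow the switched constant regions. Of 13 plasma cell genes tested, Jchain and Xbp1 were higher and 5 were lower. Xbp1, a transcription factor of secretory cells, had a log2 fold change of 0.28 ± 0.04 and was higher in 26 of 29 mice (-0.05 on TPM, above the median gene there). Sdc1, the plasma cell surface proteoglycan syndecan-1, fell from 0.893–2.91 CPM (median 1.88) to 0.555–1.79 CPM (median 1.32), with a log2 fold change of -0.56 ± 0.09 (adjusted p = 1.47e-05). Variable segments moved opposite to the switched constant regions. Of 52 Ighv segments tested, 30 fell and 0 rose, and of 66 Igkv and Iglv segments 36 fell and 0 rose, with median log2 fold changes of -0.40 and -0.32. Ighv11-2, a segment typical of B-1 cells, had a log2 fold change of -0.84 ± 0.14, and Iglv1, the most used lambda segment, of -0.58 ± 0.09.

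B cell genes fell as a group. Of 16 tested, 13 were lower on Day 17 and 0 higher, with a median of -0.26, and the summed level of the list was lower in 27 of 29 mice. Fcmr (chr1:130865669-130880791), the Fc receptor for IgM, fell from 49.7–138 CPM (median 63.0) to 31.5–58.9 CPM (median 43.4), with a log2 fold change of -0.68 ± 0.07 (adjusted p = 2.54e-08). Fcer2a, the low-affinity IgE receptor CD23 of follicular B cells, fell from 45.7–72.6 CPM (median 53.1) to 27.0–55.7 CPM (median 38.5), in all 29 mice (-0.49 ± 0.04, adjusted p = 5.7e-10). The signalling chains of the B cell receptor also fell in every mouse. Cd79a went from 103–251 CPM (median 129) to 73.5–123 CPM (median 97.0), with a log2 fold change of -0.51 ± 0.06 (adjusted p = 1.51e-07), and Cd79b had a log2 fold change of -0.43 ± 0.06. Ms4a1, which encodes CD20, fell less (-0.26 ± 0.06, adjusted p = 0.000375). Cd22, an inhibitory co-receptor, had a log2 fold change of -0.14 ± 0.05 (adjusted p = 0.0299), a call that was lost when any 1 of 15 mice was left out (adjusted p up to 0.0912). The 4-digit series alone called 14 of the 16 genes lower and the 3-digit series 10.

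The 12 lower genes with the smallest p that passed the 1.5-fold limit in at least 24 mice included Fcmr and 11 others. Igf2bp3 (chr6:49085223-49214957), an RNA-binding protein of fetal-type blood formation, showed the largest drop of the 12 lower genes with the smallest p, from 0.0877–0.791 CPM (median 0.410) to 0–0.381 CPM (median 0.152), and was lower in all 29 mice (-1.44 ± 0.12, adjusted p = 4.15e-10). Sox4, a transcription factor of early B cells, went from a median of 2.67 to 1.59 CPM (-0.71 ± 0.09). The others were Lynx1 (-0.67 ± 0.07), a modulator of nicotinic acetylcholine receptors; the zinc finger genes Zscan2 (-0.60 ± 0.06) and Hivep3 (-0.65 ± 0.07); Il5ra (-0.62 ± 0.07), the receptor chain for interleukin-5; Cplx2 (-0.71 ± 0.09), a complexin of vesicle fusion; Eya2 (-0.61 ± 0.08); Smpd3 (-0.87 ± 0.11), a neutral sphingomyelinase; Ttc28 (-0.66 ± 0.09); and Endou (-0.88 ± 0.13), an endoribonuclease. Each was lower in at least 25 of 29 mice, with adjusted p from 9.75e-09 to 2.4e-06 among these 9 and Sox4. Their Day 4 and Day 17 ranges overlapped in each case.

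MHC class II genes, which present antigen to CD4+ T cells and are carried in blood mainly by B cells and monocytes, fell with the B cell genes. Of 12 tested, 8 were lower and 1 higher (median -0.23). Cd74, the invariant chain, went from 495–1303 CPM (median 599) to 386–683 CPM (median 489), with a log2 fold change of -0.47 ± 0.08 (adjusted p = 1.36e-05), and H2-Ab1 and H2-Aa had log2 fold changes of -0.38 ± 0.06 and -0.35 ± 0.07. H2-DMb1, a peptide-loading chain, was the gene called higher (0.33 ± 0.07), but it had a negative value on TPM (-0.06) and in the 4-digit series (-0.05).

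**Figure D1:**
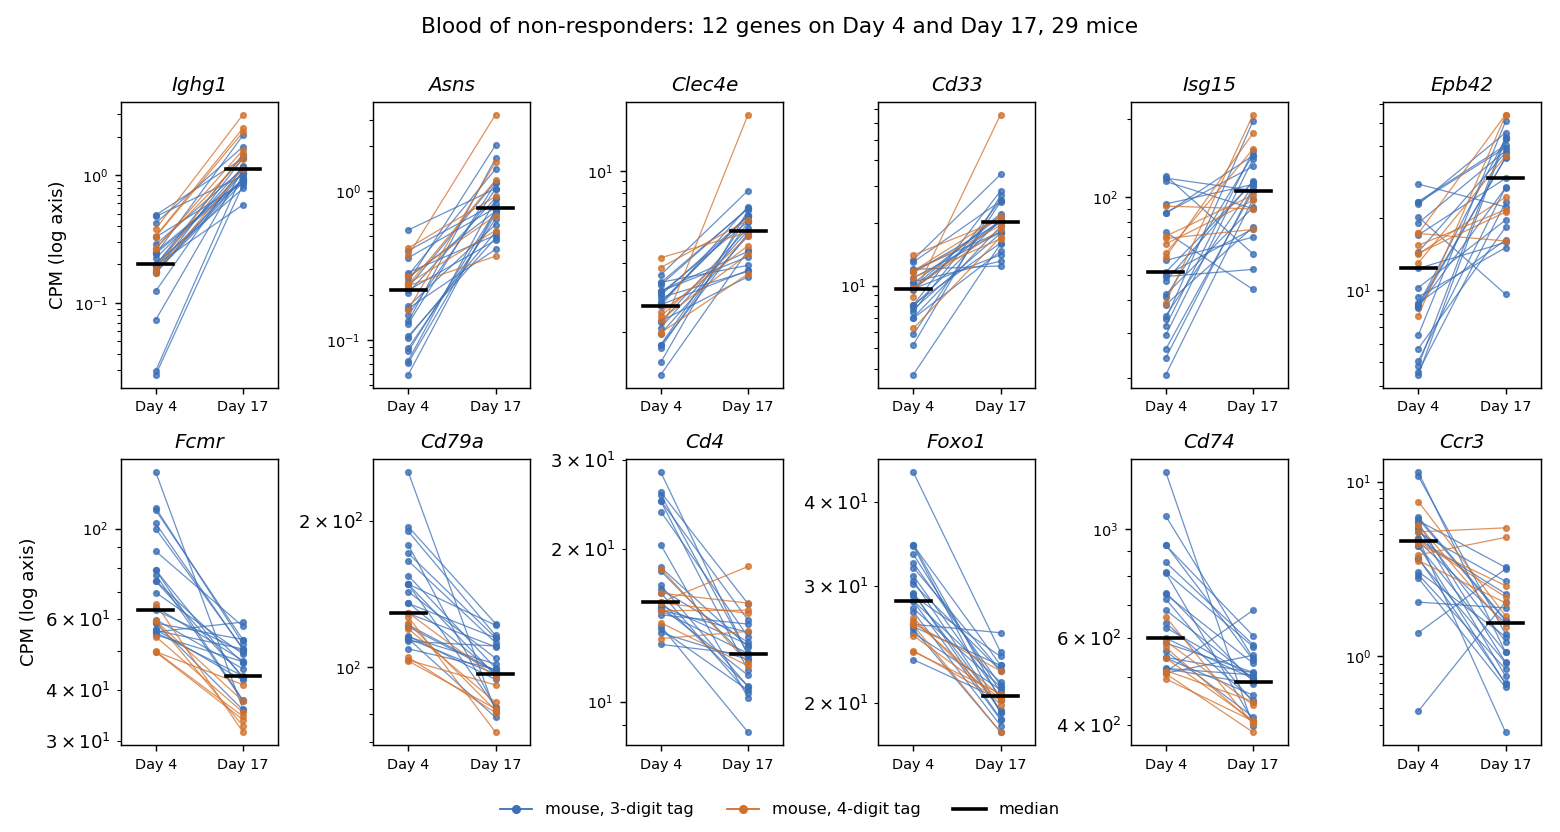
Level of 12 genes on Day 4 and Day 17 in the 29 non-responders, in CPM on a log axis, with each line 1 mouse (3-digit tags in blue, 4-digit tags in orange) and black bars the medians. Ighg1 shows no overlap between the days, with Day 4 libraries up to 0.488 and Day 17 libraries from 0.587 CPM, while the ranges of the other 11 genes overlap.

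Myeloid genes rose. Of 17 neutrophil genes tested, 14 were higher and 0 lower, with a median log2 fold change of 0.67 (0.16 on TPM, where 3 were called higher and 1 lower), and the summed list was higher in 25 of 29 mice, with medians of 245 CPM on Day 4 and 338 on Day 17. Ly6g, the surface marker that defines mouse neutrophils, went from 0–0.592 CPM (median 0.230) to 0.0971–3.46 CPM (median 0.381), with a log2 fold change of 1.13 ± 0.25 (adjusted p = 0.000601). Ngp, a granule protein, went from 0.190–2.09 CPM (median 0.545) to 0.427–3.96 CPM (median 1.08), with a log2 fold change of 1.09 ± 0.19. Trem1, an amplifying receptor of neutrophils and monocytes, was higher in 28 of 29 mice (0.90 ± 0.11, adjusted p = 1.3e-07), and Cxcr1, a chemokine receptor, had a log2 fold change of 0.95 ± 0.27 at levels of 0.137 and 0.204 CPM (medians). In 1 Day 17 library of the 4-digit series the neutrophil list summed to 1256 CPM, against 510 for the highest library of the 3-digit series.

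Classical monocyte genes rose in part. Of 15 tested, 8 were higher and 0 lower, with a median of 0.28 that turned to -0.06 on TPM. Without the 7 mice whose library stood apart, 13 of 15 were higher. Cd14, the co-receptor for lipopolysaccharide, went from 0.155–0.832 CPM (median 0.518) to 0.524–6.65 CPM (median 1.22) and was higher in all 29 mice (1.43 ± 0.15, adjusted p = 1.55e-08). Vcan, a proteoglycan of classical monocytes, went from 0.487–3.85 CPM (median 1.22) to 1.59–8.19 CPM (median 3.18), with a log2 fold change of 1.36 ± 0.19. Ccr2, the receptor that brings monocytes out of the marrow, had a smaller log2 fold change of 0.51 ± 0.10, and Ms4a6c of 0.44 ± 0.09.

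Among inflammatory myeloid genes, 10 of 17 were higher and 1 lower, with a median of 0.31 (-0.05 on TPM). Acod1, which makes itaconate in activated macrophages, went from 0.0203–0.594 CPM (median 0.262) to 0.330–4.76 CPM (median 0.786), with a log2 fold change of 1.68 ± 0.22 (adjusted p = 3.49e-07). Il1b, the cytokine interleukin-1 beta, went from 4.76–23.6 CPM (median 10.6) to 10.5–50.4 CPM (median 21.1) and was higher in 27 of 29 mice (0.91 ± 0.13). Among genes attributed to suppressive myeloid cells, 9 of 16 were higher and 2 lower (median 0.22, and -0.07 on TPM), with Wfdc17, a secreted protein of activated myeloid cells, at 1.36 ± 0.19. Pattern recognition and Fc receptor genes were higher in 16 of 20 cases and lower in 1, with a median of 0.37 (-0.02 on TPM, with 0 higher and 2 lower). Tlr8 (0.64 ± 0.08), a sensor of RNA, Tlr4 (0.47 ± 0.08), the receptor for lipopolysaccharide, and Clec4n (0.77 ± 0.17), the fungal receptor dectin-2, rose. Tlr9, a DNA sensor that B cells also carry, was the 1 that fell (-0.47 ± 0.05, adjusted p = 5.26e-08).

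The genes with the firmest increases were largely myeloid too. Clec4e (chr6:123281789-123289870), the receptor Mincle, went from 1.31–4.20 CPM (median 2.60) to 3.48–17.5 CPM (median 5.50) and was higher in all 29 mice (1.14 ± 0.11, adjusted p = 4.36e-09). Cd33 (chr7:43524216-43544428), a sialic acid receptor of myeloid cells, went from 3.74–14.0 CPM (median 9.67) to 12.4–66.0 CPM (median 20.1), also in all 29 mice (1.15 ± 0.11, adjusted p = 5.68e-09). The Day 4 and Day 17 ranges of both overlapped only at their ends. Mefv, which encodes the inflammasome protein pyrin, had a log2 fold change of 1.09 ± 0.11, and Lifr, the receptor for leukaemia inhibitory factor, of 1.11 ± 0.09. Cd244a, an immune receptor of the SLAM family on natural killer and myeloid cells, had 0.88 ± 0.08, Dpep2, a dipeptidase, 0.99 ± 0.09, and Tppp3, a tubulin-binding protein, 0.97 ± 0.09. Adjusted p for these 5 ran from 2.47e-10 (Lifr) to 5.88e-09 (Mefv), and each was higher in at least 27 of 29 mice. The complement list had 7 of 12 genes higher and 2 lower (median 0.35, and -0.02 on TPM), with Cfb, a factor of the alternative pathway, at 0.99 ± 0.16.

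Eosinophil and basophil genes fell while neutrophil genes rose. All 4 eosinophil genes tested were lower, on TPM as well. Ccr3, the eotaxin receptor that defines eosinophils, fell from 0.481–11.3 CPM (median 4.57) to 0.364–5.42 CPM (median 1.54), with a log2 fold change of -1.51 ± 0.22 (adjusted p = 2.88e-06), and Alox15, a lipoxygenase, from 0.495–10.8 CPM (median 3.77) to 0.265–5.40 CPM (median 1.29), with a log2 fold change of -1.37 ± 0.21. Both ranges overlapped widely, and 4 and 5 of 29 mice went against the direction. Siglecf had a log2 fold change of -0.52 ± 0.18 and of 0.04 in the 4-digit series. Of 4 basophil genes tested, 3 were lower: Cpa3, a mast cell and basophil protease (-0.94 ± 0.23), Cd200r3 (-0.56 ± 0.20) and Ms4a2, a chain of the IgE receptor (-0.55 ± 0.21). The call of Ms4a2 was lost when any 1 of 11 mice was left out (adjusted p up to 0.0640).

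T cell genes fell in the pooled mice and in the 3-digit series. Of 18 tested, 17 were lower and 0 higher (median -0.39), and the summed list was lower in 28 of 29 mice. Trac, the constant region of the T cell receptor alpha chain, went from 9.80–22.4 CPM (median 14.1) to 7.21–15.3 CPM (median 10.8), with a log2 fold change of -0.49 ± 0.07 (adjusted p = 1.3e-06). Skap1 (-0.48 ± 0.06), an adaptor of T cell adhesion, Thy1 (-0.46 ± 0.07) and Cd3d (-0.44 ± 0.09), a chain of the receptor complex, fell as well. In the 3-digit mice 18 of 18 were lower (median -0.46), and in the 4-digit mice 2 were lower and 1 higher (median -0.09), where 6.95% of all genes tested were called lower and 10.4% higher. Cd3d showed the contrast most plainly, at -0.57 and 0.00020 in the same order. The number of mice differed as well, and a test of the difference is given with the tag series below.

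Genes of naive and memory T cells fell as well, with 17 of 17 lower and a median of -0.36. Cd4 went from 13.0–28.3 CPM (median 15.7) to 8.70–18.5 CPM (median 12.4), with a log2 fold change of -0.47 ± 0.07 (adjusted p = 2.12e-06). Foxo1, a transcription factor of quiescent lymphocytes, fell from 23.3–44.4 CPM (median 28.4) to 18.1–25.5 CPM (median 20.5), in all 29 mice (-0.49 ± 0.04, adjusted p = 4.48e-10), and Dapl1 and Igfbp4, both typical of naive T cells, had log2 fold changes of -0.52 ± 0.09 and -0.59 ± 0.10. The 4-digit series called 7 of these 17 genes lower, where Igfbp4 stood at 0.02. The summed list went there from 503 to 559 CPM on Day 4 to 443 to 492 CPM on Day 17, without overlap. Of 17 Trav and Trbv segments tested, 11 were lower and 0 higher, with 13 lower in the 3-digit and 0 in the 4-digit series.

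Regulatory T cell genes fell in 6 of 10 cases and rose in 1. Foxp3, the transcription factor that defines these cells, went from 1.78–4.50 CPM (median 2.26) to 1.07–2.59 CPM (median 1.81), with a log2 fold change of -0.44 ± 0.08 (adjusted p = 2.19e-05), with -0.57 in the 3-digit and 0.01 in the 4-digit mice. Izumo1r, a folate receptor of regulatory T cells (-0.56 ± 0.08), and Tnfrsf18, which encodes GITR (-0.42 ± 0.06), were lower. Ctla4, an inhibitory receptor and itself on the list, was the 1 that rose, from a median of 0.691 to 0.912 CPM (0.51 ± 0.11, adjusted p = 0.000394), with the opposite sign on TPM (-0.0096). Of 20 checkpoint and costimulation genes, 5 were higher and 4 lower (median 0.03, and -0.09 on TPM), close to the 20.8% and 23.4% of all genes. Havcr2, the receptor TIM-3 of exhausted T cells and of myeloid cells, went from 0.662–2.34 CPM (median 1.33) to 0.849–3.57 CPM (median 2.07), with a log2 fold change of 0.60 ± 0.08 (adjusted p = 1.41e-06), and Cd80, a ligand of CD28 and CTLA-4, had a log2 fold change of 0.54 ± 0.11.

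Cytotoxic genes divided. Of 20 tested, 7 were lower and 0 higher in the pooled mice (median -0.06), 9 were lower in the 3-digit series and 4 were higher in the 4-digit series. In the 5 mice with 3-digit tags whose library stood apart, the summed list fell from 199–261 CPM to 116–148 CPM. The other 3-digit mice reached at most 179 CPM on Day 4 and moved both ways. Prf1, the pore protein perforin, went from 5.14–18.2 CPM (median 9.27) to 4.15–9.39 CPM (median 6.67), with a log2 fold change of -0.48 ± 0.08 (adjusted p = 3.21e-05), at -0.63 in the 3-digit and 0.04 in the 4-digit mice. Nkg7, a granule membrane protein, had a log2 fold change of -0.37 ± 0.09 (-0.51 and 0.12 in the same order), Gzma, granzyme A, of -0.32 ± 0.09 (-0.45 and 0.14), and Tbx21, which encodes the transcription factor T-bet, of -0.30 ± 0.08 (-0.44 and 0.17). Of the other markers of effector T cells that the study follows, Gzmb, granzyme B, was not called and stood at 2.19–5.37 CPM (median 3.19) on Day 4 and 2.05–6.62 CPM (median 3.43) on Day 17 (0.13 ± 0.09, adjusted p = 0.271). Nor were Cxcr3, Cx3cr1 and Cxcr6 called. Cxcr3, a receptor for interferon-induced chemokines, had 0.06 ± 0.07 (adjusted p = 0.508; -0.12 on TPM), Cx3cr1, the fractalkine receptor, -0.05 ± 0.09 (adjusted p = 0.670), and Cxcr6 -0.16 ± 0.07 (adjusted p = 0.0760, and as low as 0.0275 with 1 mouse left out). Of 20 natural killer cell genes, 10 were lower and 3 higher (median -0.23, and 0.06 in the 4-digit series), with Klrb1c, the NK1.1 antigen, at -0.49 ± 0.08 and Klra9, a Ly49 receptor whose family members share reads, at -0.42 ± 0.08.

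**Figure D2:**
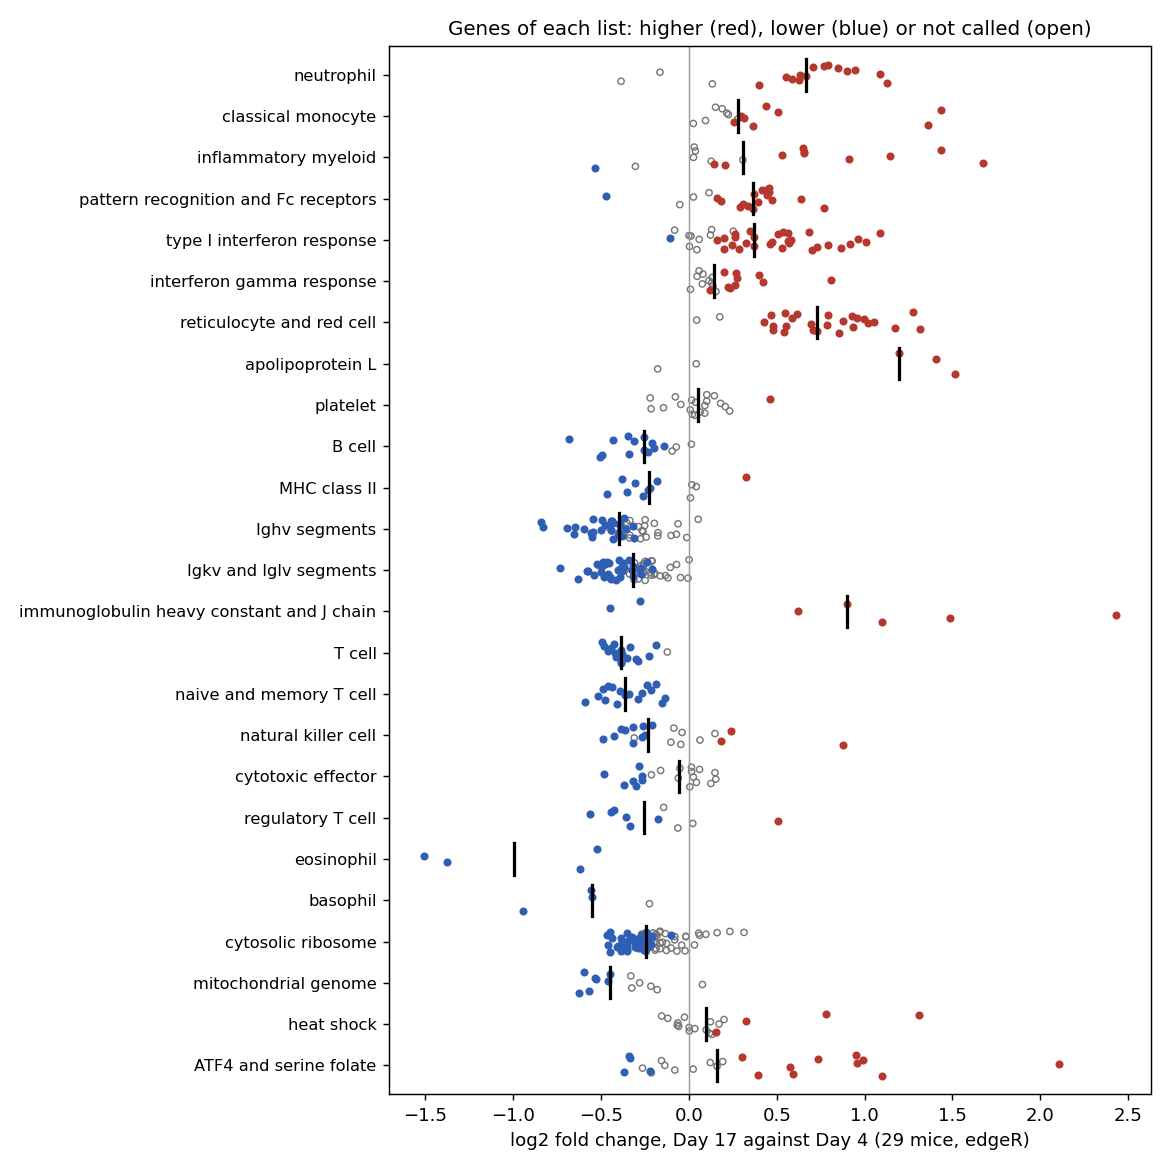
Log2 fold change from Day 4 to Day 17 of every tested gene in 25 gene lists (edgeR, 29 mice), with genes called higher in red, genes called lower in blue, others open and the black bar the list's median. Reticulocyte, neutrophil and type I interferon genes lie mostly right of 0 (the interferon median was -0.02 on TPM), and B cell, T cell, eosinophil and variable segment genes mostly left of it.

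Interferon-response genes rose. Of 39 genes of the type I response tested, 29 were higher and 1 lower, with a median log2 fold change of 0.37 that turned to -0.02 on TPM (6 higher, 4 lower), and the summed list was higher in 22 of 29 mice, with medians of 785 CPM on Day 4 and 1330 on Day 17. Isg15, a ubiquitin-like protein made in quantity after interferon, went from 20.6–121 CPM (median 51.4) to 44.0–208 CPM (median 106), with a log2 fold change of 0.96 ± 0.18 (adjusted p = 7.28e-05). The oligoadenylate synthetase genes, sensors of double-stranded RNA, led the list. Oas1g went from 0.142–0.813 CPM (median 0.458) to 0.404–1.73 CPM (median 1.03), with a log2 fold change of 1.09 ± 0.12 (adjusted p = 4.49e-08), Oas2 from 1.26–6.99 CPM (median 4.00) to 2.71–13.7 CPM (median 7.08), with a log2 fold change of 1.01 ± 0.12, and Oasl2 had a log2 fold change of 0.92 ± 0.11. In the 3-digit series 30 of 39 were called higher and in the 4-digit series 7, with medians of 0.46 and 0.20. Genes of the response to interferon gamma were higher in 10 of 20 cases and lower in 0 (median 0.15, and -0.13 on TPM), led by Iigp1, an immunity-related GTPase (0.81 ± 0.10), and Gbp7, a guanylate-binding protein (0.42 ± 0.06; -0.02 on TPM). Of 21 MHC class I and immunoproteasome genes, 7 were higher and 9 lower, with the nonclassical gene H2-Q7 at 0.39 ± 0.06 (-0.12 on TPM) and Nlrc5, the transactivator of class I genes, at 0.33 ± 0.08 (-0.04 on TPM). The H2-Q and Oas genes have close copies, and reads may have been shared between them.

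Promoters of the leading interferon-response genes were read for the element that interferon-activated factors bind, here spelled as GAAA, any 2 bases and GAAA again and searched on both strands. Of the 39 listed genes, 28 matched a promoter window, and 16 of these (57.1%) held the motif. It was held by 3.44% of all 32851 windows of the same length and by 4.07% of 9297 genes tested. Of the 20 listed genes with a window that were called higher, 11 held it (55%), a share no larger than in the whole list. The windows are those of RefSeq on GRCm38.p6, from 250 bases before to 50 after the gene's start, and the 2 below are shown because these genes were among the 4 with the largest increases on the list and hold the motif. Capitals mark the motif, which occurs as 2 overlapping matches in Oas1g, from 18 bases before the start, and as 3 in Isg15, from 78 bases before it. The window of Oasl2 does not hold these letters. Oas1g lies at chr5:120887564-120887863, minus strand, and Isg15 at chr4:156200769-156201068, minus strand.
Oas1g: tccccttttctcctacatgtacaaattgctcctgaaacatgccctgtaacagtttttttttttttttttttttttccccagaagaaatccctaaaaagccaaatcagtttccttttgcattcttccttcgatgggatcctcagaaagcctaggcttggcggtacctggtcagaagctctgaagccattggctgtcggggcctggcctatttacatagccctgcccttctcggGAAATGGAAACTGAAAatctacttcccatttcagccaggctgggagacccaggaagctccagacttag
Isg15: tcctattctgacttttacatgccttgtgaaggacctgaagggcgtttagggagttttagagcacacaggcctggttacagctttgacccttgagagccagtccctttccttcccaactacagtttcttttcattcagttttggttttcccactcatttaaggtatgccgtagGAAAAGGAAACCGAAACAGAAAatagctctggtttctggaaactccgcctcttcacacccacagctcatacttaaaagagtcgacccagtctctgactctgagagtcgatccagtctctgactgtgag

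Red cell genes rose, though not in every mouse. The summed list of reticulocyte and red cell genes was higher on Day 17 in 20 of 29 mice. Of 27 reticulocyte and red cell genes tested, 25 were higher and 0 lower, with a median of 0.73 (0.21 on TPM, with 18 higher and 2 lower). Epb42, a membrane skeleton protein, went from 4.45–27.8 CPM (median 12.4) to 9.64–54.3 CPM (median 29.4), with a log2 fold change of 1.32 ± 0.19 (adjusted p = 2.04e-06), and Car2, carbonic anhydrase 2, from 21.1–162 CPM (median 57.8) to 54.4–256 CPM (median 142), with a log2 fold change of 1.05 ± 0.18. Rhag, a subunit of the Rh complex, had a log2 fold change of 1.18 ± 0.20. Of 7 haemoglobin genes 3 were higher, with Hbq1b, a theta globin, at 0.84 ± 0.18 and Hbb-bt, an adult beta globin, at 0.54 ± 0.22 (adjusted p = 0.0447), a call lost when any 1 of 13 mice was left out (adjusted p up to 0.0643). Among iron and haem genes 8 of 15 were higher and 1 lower (median 0.22, and -0.06 on TPM). Tfrc, the transferrin receptor, went from 1.99–7.13 CPM (median 5.38) to 5.66–18.1 CPM (median 7.48) and was higher in all 29 mice (0.71 ± 0.09, adjusted p = 3.72e-07), while Hmox1, haem oxygenase, had 0.59 ± 0.10 and Alas2, the erythroid enzyme that starts haem synthesis, 0.55 ± 0.19.

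The apolipoprotein L family held some of the largest increases, with 3 of 5 tested genes higher and a median of 1.19 (0.08 on TPM). Apol11b went from 16.8–174 CPM (median 47.6) to 53.1–316.9 CPM (median 123), with a log2 fold change of 1.19 ± 0.19 (adjusted p = 9.66e-06). Apol10a and Apol11a had log2 fold changes of 1.51 ± 0.24 and 1.41 ± 0.20. Members of this family resemble each other, and shared reads may have been moved between them. Platelet genes were called mainly in the 4-digit series. Of 20 (median 0.05, and -0.28 on TPM), 1 was called higher in the pooled mice, Gp1bb, a chain of the von Willebrand factor receptor (0.46 ± 0.18, adjusted p = 0.0382, lost when any 1 of 10 mice was left out, with adjusted p up to 0.0652). In the 4-digit series 17 of 20 were higher, in the 3-digit series 0, and without the 7 mice whose library stood apart 11, while the test of the difference between the series called 1 of 20.

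Amino acid stress genes contained one of the firmest changes of all. Asns (chr6:7675169-7693254), asparagine synthetase and a target of the stress factor ATF4, went from 0.0590–0.549 CPM (median 0.217) to 0.366–3.25 CPM (median 0.771) and was higher in all 29 mice (2.11 ± 0.17, adjusted p = 3.44e-10). Mthfd2, a mitochondrial folate enzyme, went from 2.13–12.9 CPM (median 4.48) to 4.35–21.4 CPM (median 10.1), with a log2 fold change of 1.10 ± 0.15, and Atf5 and Nupr1, both stress regulators, had log2 fold changes of 0.99 ± 0.15 and 0.96 ± 0.11. Of the 23 ATF4 and serine-folate genes tested, 10 were higher and 4 lower (median 0.16, and -0.07 on TPM). The window sequences of Asns and Nupr1 are shown because both rose and hold the element spelled TGATGNAA, to which ATF4 with its partners binds, searched on both strands and set in capitals. It occurs 23 bases before the start in Asns (chr6:7693160-7693459, minus strand) and, on the other strand, 110 bases before the start in Nupr1 (chr7:126625421-126625720, minus strand). It was found in 5 of the 21 listed genes with a window (23.8%), against 3.97% of all windows and 2.74% of genes tested. Of the 9 with a window that were called higher, 3 held it (33.3%), and the windows of Mthfd2 and Atf5 did not.
Asns: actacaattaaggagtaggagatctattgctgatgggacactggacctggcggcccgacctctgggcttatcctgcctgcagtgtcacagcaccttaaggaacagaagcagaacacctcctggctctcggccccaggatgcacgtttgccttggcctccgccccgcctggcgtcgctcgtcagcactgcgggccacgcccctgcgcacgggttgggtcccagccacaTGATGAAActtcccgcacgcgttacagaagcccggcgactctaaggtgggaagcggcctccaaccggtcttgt
Nupr1: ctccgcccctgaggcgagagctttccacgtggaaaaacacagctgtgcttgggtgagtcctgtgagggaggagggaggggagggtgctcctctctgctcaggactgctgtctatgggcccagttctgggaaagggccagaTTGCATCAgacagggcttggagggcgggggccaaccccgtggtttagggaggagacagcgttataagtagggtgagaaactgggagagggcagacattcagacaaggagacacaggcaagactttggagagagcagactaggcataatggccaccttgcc

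The calls in gene lists of general cell physiology depended on the mice. Of 87 cytosolic ribosomal protein genes, 49 were lower and 0 higher (median -0.24), with Rpsa at -0.46 ± 0.10 and Rps15 at -0.47 ± 0.10. In the 4-digit series 0 of them were called, without the 7 mice whose library stood apart 15 were lower and 4 higher, and with the mitochondrial share as a covariate 5 were lower and 11 higher. Of 13 genes of the mitochondrial genome, 7 were lower and 0 higher (median -0.45), with mt-Nd1 at -0.63 ± 0.12 and mt-Nd2 at -0.57 ± 0.12, whereas the 4-digit series called 0 lower and 1 higher. Among 78 nuclear genes of the mitochondrial ribosome, 30 were lower and 3 higher, 1 of the latter Mrpl32 (0.57 ± 0.08). Of 49 spliceosome genes 26 were lower and 10 higher, with Sf3a2, a subunit of the U2 particle, at -0.46 ± 0.06 and the splicing factor Srsf7 at 0.55 ± 0.12. Heat shock genes were higher in 4 of 19 cases in the pooled mice, close to the 20.8% of all genes (median 0.10, and -0.17 on TPM), in 18 of 19 in the 4-digit series and in 2 of 19, with 5 lower, in the 3-digit series. Hspa1b, the inducible chaperone HSP70, went from 0.0542–0.707 CPM (median 0.266) to 0.198–2.48 CPM (median 0.564), with a log2 fold change of 1.31 ± 0.20 (0.96 in the 3-digit and 2.23 in the 4-digit mice), and the co-chaperone Dnaja1 had 0.33 ± 0.07 (-0.03 on TPM). Of 36 proliferation genes 12 were higher and 9 lower, against 20.8% and 23.4% of all genes, with Mki67, the proliferation marker Ki-67, at 0.50 ± 0.11. Of 23 immediate early genes 8 were higher and 3 lower (median 0.14, and -0.14 on TPM), with Dusp1, a phosphatase, at 0.81 ± 0.14 and Fos at 0.58 ± 0.17.

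Single values per library were compared with a two-sided sign-flip permutation test over the 29 mice, with adjustment over the 5 values. The switched isotypes IgG, IgA and IgE took 0.767% to 3.30% of immunoglobulin heavy constant counts on Day 4 (median 1.52%) and 2.45% to 6.20% on Day 17 (median 4.37%). The share rose in 29 of 29 mice, by a mean of 2.53 ± 1.01 percentage points (SD), with p = 1e-05, the smallest the test can give, and an adjusted p of 5e-05. IgA made up most of it, at medians of 1.23% on Day 4 and 3.41% on Day 17, while the median IgM share went from 69.4% to 64.0% and the median IgD share from 29.3% to 31.9%. The haemoglobin share of all counts went from a mean of 77.8% ± 5.21 (SD, n = 29) to 81.7% ± 2.46 and rose in 19 of 29 mice (adjusted p = 0.00309). The mitochondrial genome took 4.87% ± 1.31 of the other counts on Day 4 and 3.91% ± 0.490 on Day 17, with a rise in 8 of 29 mice (adjusted p = 0.00195) and in 5 of the 7 with 4-digit tags. The mean difference was -0.958 percentage points, and -0.494 without the 7 mice whose library stood apart (adjusted p = 0.0271). The Simpson index, which grows as fewer segments hold more of the counts, was 0.0664 ± 0.00406 and 0.0709 ± 0.00588 for Trbv segments (19 of 29 mice higher, adjusted p = 0.00309) and 0.0226 ± 0.00135 and 0.0234 ± 0.00168 for Ighv segments (adjusted p = 0.118). These indices rest on 167 to 999 Trbv and 444 to 4003 Ighv counts per library, so a small shift in 1 segment moves them, and on TPM the Trbv difference was not called (adjusted p = 0.083) and the Ighv difference was (adjusted p = 0.0155).

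**Figure D3:**
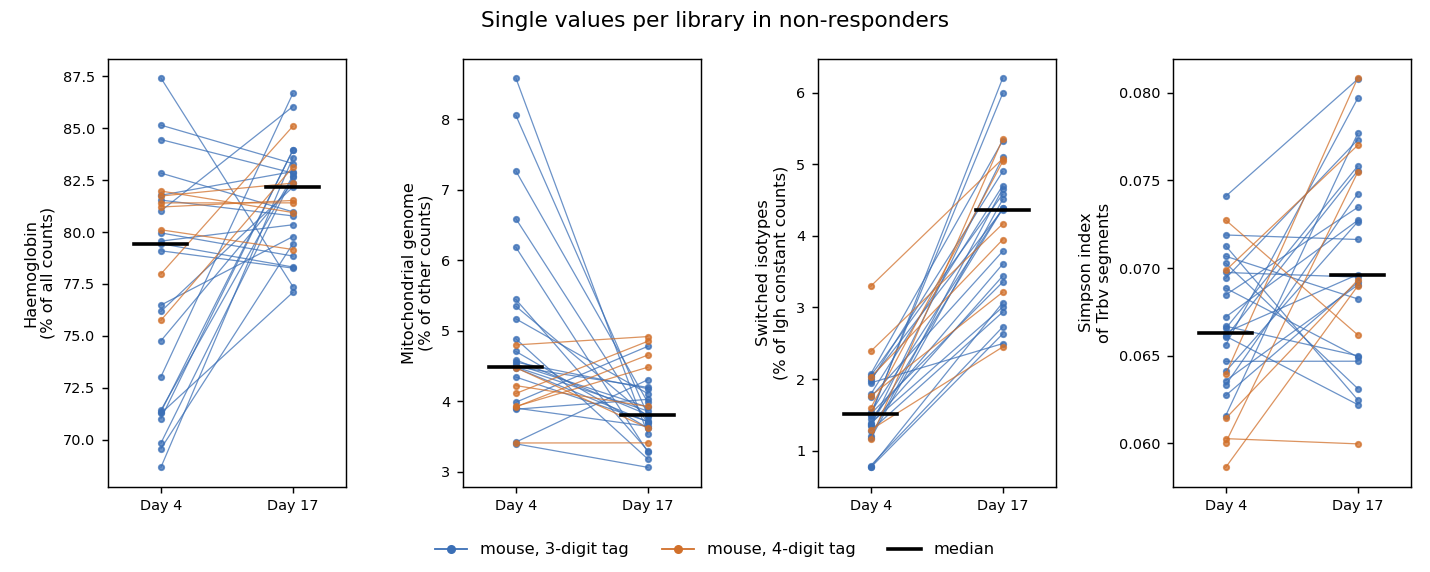
Haemoglobin share, mitochondrial share, switched isotype share and Simpson index of Trbv segments on Day 4 and Day 17, with each line 1 mouse (3-digit tags in blue, 4-digit tags in orange) and black bars the medians. The switched isotype share rises in all 29 mice, from a median of 1.52% to 4.37%, while lines of the other 3 values run both ways.

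Day 9 was the first bleed on treatment, and the comparison with it asks how Day 17 stands within the course. Both comparisons use the same Day 17 libraries, so their values are given side by side only. Between Day 9 and Day 17, 4592 of 12432 genes changed (36.9%) in 30 mice, 2398 higher (19.3%) and 2194 lower (17.6%), with a median over all genes of 0.02. Classical monocyte genes, higher on Day 17 than on Day 4 in 8 of 15 cases, were lower than on Day 9 in 15 of 15, and the summed list had medians of 465, 826, 559 and 412 CPM on Days 4, 9, 17 and 24. Ccr2 stood at 29.0–97.6 CPM (median 54.3) on Day 9 and 17.8–40.6 CPM (median 27.6) on Day 17 in the paired mice, and was lower in all 30 mice (-0.99 ± 0.10, adjusted p = 2.4e-08). Fn1, fibronectin, which classical monocytes carry, stood at 50.6–147 CPM (median 77.1) on Day 9 and differed by -1.16 ± 0.11 on Day 17. Tnfrsf21, a death receptor (-0.72 ± 0.07), Fnip2, a folliculin partner (-0.77 ± 0.07), and B4galt6, a galactosyltransferase (-0.80 ± 0.08), were the other 3 of the 5 firmest decreases.

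Neutrophil genes were lower than on Day 9 in 7 of 17 cases and higher in 0, and pattern recognition and Fc receptor genes lower in 18 of 20. Natural killer cell genes were lower than on Day 9 in 13 of 20 cases and higher in 0, and cytotoxic genes lower in 9 of 20 and higher in 2. T cell genes moved the other way. They were higher than on Day 9 in 16 of 18 cases and lower in 0, and the summed list had medians of 271, 204, 229 and 242 CPM over the 4 days. B cell genes were higher in 5 of 16, with summed medians of 889, 697, 742 and 800 CPM, and cytosolic ribosomal protein genes in 67 of 87. The IgG constant regions Ighg1 and Ighg2b still rose, at 1.24 ± 0.13 and 1.04 ± 0.10 against Day 9, and their Day 9 medians (0.497 and 0.898 CPM) lay between those of Day 4 and Day 17. Lime1, a lymphocyte adaptor (0.31 ± 0.03), Dut, which breaks down dUTP (0.45 ± 0.05), and Tspan17, a tetraspanin (0.50 ± 0.06), completed the 5 firmest increases. The type I interferon list did not move in 1 direction, with 2 of 39 genes higher and 8 lower than on Day 9. All 4 eosinophil and all 6 basophil genes tested were lower than on Day 9, and squamous genes were lower in 5 of 7.

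**Figure D4:**
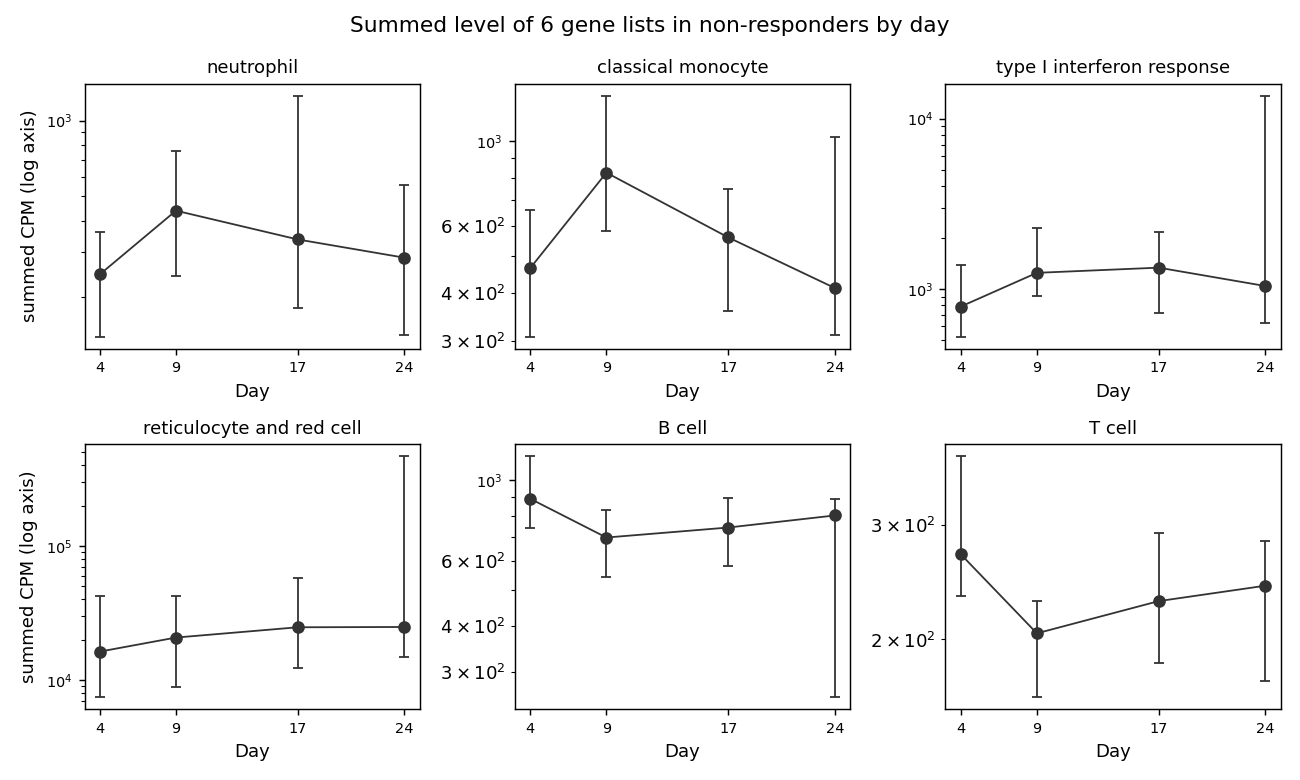
Summed level of 6 gene lists in non-responders on Days 4, 9, 17 and 24, in CPM on a log axis, with points the medians and bars the lowest and highest of 29 (Day 4) or 30 libraries. Monocyte and neutrophil genes peak on Day 9 (medians of 826 and 439 CPM), B and T cell genes are lowest then, and on Day 24 the red cell, interferon and B cell bars reach 466680, 13643 and 256 CPM, outside the range of the other days.

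Responders were compared by the difference of the changes, non-responders minus responders, in 29 and 14 mice. By edgeR 0 of 13130 genes (0%) differed, with a smallest adjusted p of 0.309. An unadjusted p under 0.05 was reached by 809 genes. Without the 7 mice whose library stood apart 1644 genes reached it, and 1337 with tag series by day as a term, with 0 called in either fit. DESeq2 called 99 genes, 5 higher and 94 lower, and edgeR without the mouse as a block 48, 0 higher and 48 lower. Of the responder pairs 10 have 4-digit and 4 have 3-digit tags, against 7 and 22 of the non-responders, so response and tag series are partly confounded. Txnrd1, thioredoxin reductase, had the smallest p. In non-responders it stood at 5.46–8.60 CPM (median 6.66) on Day 4 and 5.34–8.20 CPM (median 5.99) on Day 17, and in responders at 4.18–7.12 CPM (median 6.00) and 5.65–10.5 CPM (median 7.09). It was higher on Day 17 in 9 of 29 and 13 of 14 mice, a difference of -0.43 ± 0.09 (adjusted p = 0.309). Those 9 non-responders were 7 of the 7 with 4-digit tags and 2 of the 22 with 3-digit tags. The other genes of smallest p, none of them called by edgeR with the mouse as a block, were Atp1b1 (-0.31 ± 0.07), a sodium pump subunit, Phlda1 (-1.84 ± 0.44), Slc28a3 (-5.09 ± 1.20) and Ephb3 (-5.16 ± 1.23) on the lower side, and Ccnb1, cyclin B1 (1.16 ± 0.31), Gng10 (0.30 ± 0.08), Ppp3cb (0.21 ± 0.06), Gm14698 (0.79 ± 0.20) and Gm10282 (0.50 ± 0.13) on the higher. DESeq2 called all 10 of these genes, Txnrd1 included, and edgeR without the block called 4 of the 10. Slc28a3 and Ephb3 were at 0 CPM in some libraries of both groups, and their fitted values depend on the prior count. Ighg1 in responders went from 0.0662–0.696 CPM (median 0.217) to 0.681–3.46 CPM (median 1.10) and was higher in 14 of 14 mice.

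The tag series differed in the Day 17 change. In the test of the difference itself, 451 of 13395 genes were called (3.37%), of which 136 (1.02% of all) were lower in the 4-digit series and the rest (2.35%) higher. Without the 7 mice whose library stood apart 194 were called, 180 higher and 14 lower. The count of lower genes thus fell from 136 to 14 and depended strongly on those mice. T cell genes were called in 5 of 18 cases, cytotoxic genes in 5 of 22 and heat shock genes in 10 of 20, all with higher values in the 4-digit series, and type I interferon genes in 3 of 39, all lower. The summed heat shock list stood at 341 to 509 CPM on Day 4 (median 431) and 545 to 701 CPM on Day 17 (median 596) in the 4-digit mice, without overlap. It had medians of 437 and 387 CPM in the 3-digit mice. There, the 5 mice whose library stood apart had the highest Day 4 sums, 516 to 663 CPM, and each fell. The other 3-digit mice reached at most 493 CPM on Day 4 and moved both ways. The cytotoxic list had medians of 133 and 149 CPM in the 4-digit and of 163 and 147 in the 3-digit mice. Its Day 4 sums in the 3-digit mice were likewise highest in those whose library stood apart. Whether these differences belong to an experiment, to collection or to the mice was not tested.

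Squamous epithelial genes moved with the tag series. The summed list of 17 markers had medians of 9.32 CPM on Day 4 and 6.31 on Day 17 in the 3-digit mice and of 5.43 and 8.25 in the 4-digit mice, with ranges of 5.89 to 23.0, 5.33 to 16.1, 5.25 to 6.44 and 6.31 to 13.5 in that order. Sfn, which blood cells also express, is among the 17. Krt13, a keratin of oral mucosa, was at 0 counts in all 7 Day 4 libraries of the 4-digit series and at 0.537 to 2.96 CPM on Day 17 there, and at 0.0963 to 7.31 CPM on Day 4 in the 3-digit series. Krt4, Krt6a and Krt6b were at 0 in the same 7 libraries, and the keratinocyte genes Sprr1b and Sprr3 were at 0 in all 58. In the pooled mice 1 of 5 squamous genes tested was called, Sfn (lower). The part of epithelial RNA in the differences between the series was not tested.

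**Figure D5:**
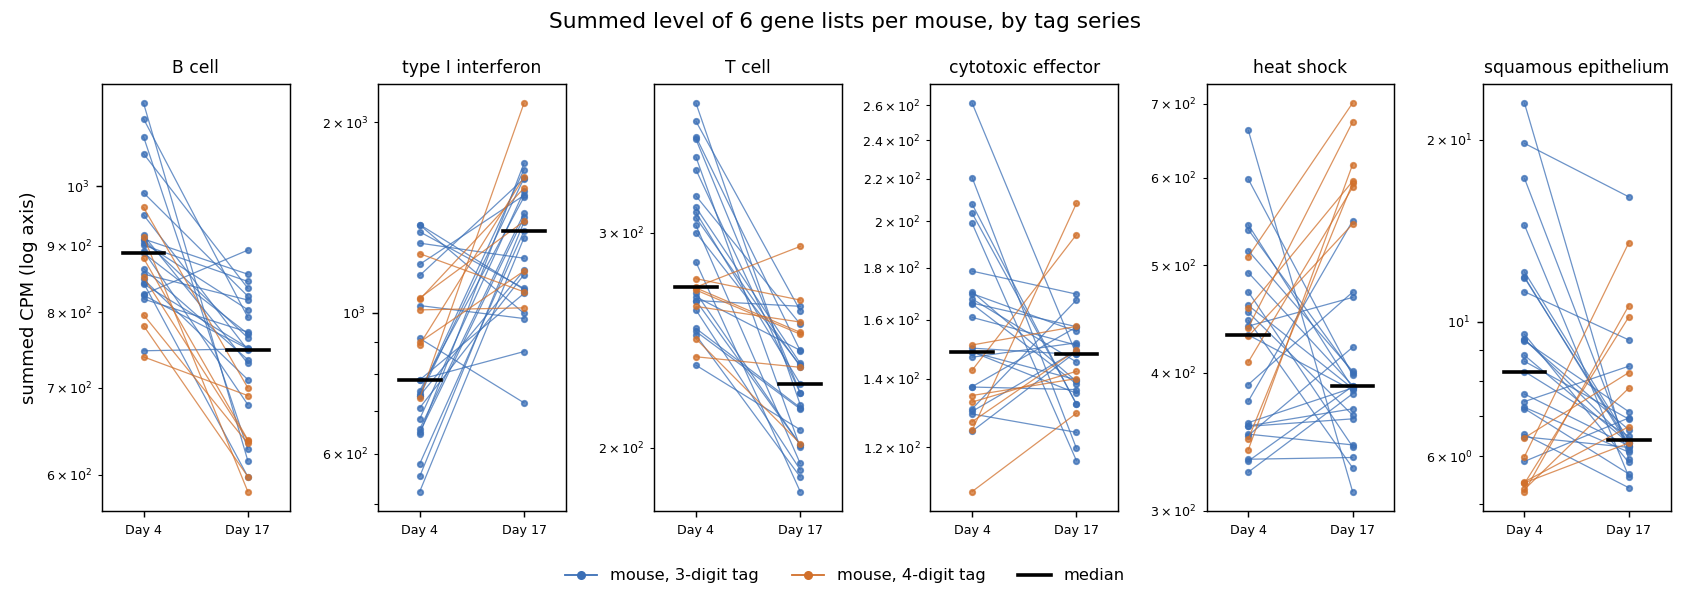
Summed level of 6 gene lists on Day 4 and Day 17 in CPM on a log axis, with each line 1 mouse (22 with 3-digit tags in blue, 7 with 4-digit tags in orange) and black bars the medians of all 29. Heat shock genes rise in every orange mouse, from a median of 431 to 596 CPM, and squamous genes start low in the orange mice, at 5.25 to 6.44 CPM, while B cell genes fall in both series.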

How the data were processed

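The authors made SMARTer mRNA libraries from whole blood in TRIzol, aligned the reads to mm10 with STAR (versions not given in the sources used here), and deposited a table of estimated counts per gene, which are not all whole, and a table of TPM values, which the authors scaled per library and by transcript length. The TPM values were computed from raw counts and the reference genome, and the counting tool is not given in the sources used here. The members and gene lists were chosen with earlier results of these data known.

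Counts were rounded. Genes passing filterByExpr were scaled by TMM and tested with the quasi-likelihood test of edgeR 4.0.16 in R 4.3.3, with mouse and day as terms and Benjamini-Hochberg adjustment over all genes tested. Gene lists are described by counts of called genes and by their median, with no test of the list. Pairs come from the mouse tag in the titles. The deviations of the Day 4 and Day 17 libraries of a mouse correlated at -0.63 to 0.61 (median -0.03), above 0.1 in 7 of 29 mice. In 2 of 29 mice the Day 4 library correlated best with the Day 17 library of the same tag. The pairs therefore rest on the tags alone. No libraries were identical, and replicates are separate mice. On data simulated for Day 17 against Day 4 over 12386 genes, the fit called 96% of genes changed 2-fold upward, 84% of those changed 1.5-fold upward and 6 of 12186 unchanged genes. In that simulation 50 genes changed at each fold, up and down alike, and no differences between mice were built in. The rate of false calls where as many genes change as in the real libraries was not tested.

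Named genes are, per direction, the 12 of smallest p among those called with a 1.5-fold change and the same direction in at least 24 of 29 mice (immunoglobulin and T cell receptor variable segments and Gm or Rik symbols passed over), up to 4 called members per list by size of change, markers the study follows, and 5 genes per direction in the other comparisons. Alternatives were DESeq2 1.42.0, limma 3.58.1 on log2(TPM + 1), RLE scaling, removal of haemoglobin, other filters, no mouse block, all 4 days in 1 fit, the haemoglobin share as a covariate, each tag series alone and leaving out each mouse. Leaving out the 7 mice with a library that stood apart and the mitochondrial share as a covariate were added after seeing the data. Coordinates are those of GENCODE M21 on GRCm38 (mm10), matched by gene identifier for 55450 genes. Some genes are not reported here.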

Additional observations from a re-analysis of the deposited data

Results flagged for a closer look

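The change from Day 4 to Day 17 differed between the tag series for 451 genes by a test of the difference itself, which is why they stand here. The 5 of smallest p with higher values in the 4-digit mice are genes of epithelium and connective tissue or of unknown role. Eln, elastin, stood at 0–0.0371 CPM (median 0) on Day 4 and 0.346–2.23 CPM (median 1.81) on Day 17 in the 4-digit mice, and at 0–0.792 CPM (median 0.0927) and 0–0.191 CPM (median 0.0389) in the 3-digit mice. Its fitted log2 difference was 8.81. Mal, a lipid raft protein of epithelia, went from at most 0.0439 CPM to 0.684–2.77 CPM (median 1.58) in the 4-digit mice (8.89), and Epha2, an ephrin receptor with a difference of 4.95, to 0.391–1.47 CPM (median 0.834). AI661453 (9.57) and Aif1l (5.76) behaved likewise, and all 5 were higher on Day 17 in 7 of 7 4-digit mice and in 2 to 7 of 22 3-digit mice. The Day 4 libraries of the 4-digit series lie at or near 0 for these genes, so the fitted values depend on the prior count.

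On the lower side, Ctso, the protease cathepsin O, stood at 7.79–11.1 CPM (median 8.05) on Day 4 and 5.18–6.87 CPM (median 6.37) on Day 17 in the 4-digit mice, lower in 7 of 7, and was higher on Day 17 in 17 of 22 3-digit mice (difference -0.63). Cul9, a cullin (-0.75), Tef, a circadian transcription factor (-0.63), Qsox2, a sulfhydryl oxidase (-0.88), and Gm6545 (-0.94) followed, with adjusted p from 0.000325 to 0.000976 by edgeR. Of the squamous keratins tested for this difference, Krt4, Krt6a, Krt6b, Krt13 and Krt15 were called by edgeR, with adjusted p from 2.19e-06 to 0.0153, and Krt5 was not (adjusted p = 0.0659). Whether they vary with Eln, Mal and Epha2 across mice was not tested.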

How the results depend on the processing

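Of the 137 genes named from Day 17 against Day 4, 133 were called and 129 kept their call in all 29 fits that lack a mouse. The count of 5474 ranged from 5139 to 5677 with 1 mouse left out, was 5648 without the mouse block, which changed 4 calls of named genes, and was 2114 in the 4-digit series alone, which has fewer mice. With a 1.5-fold limit it was 542, and under that limit 905 with the mitochondrial share as a covariate, 843 with a filter of 1 count in any library, 3.28% of 9824 genes with 10 counts in every library (4.38% of 12386 in the fit reported) and 272 on TPM, with 16 higher and 256 lower there. For the difference from responders, 48 genes were called without the mouse block, all lower, and 99 by DESeq2, 94 of them lower. The smallest adjusted p by edgeR was 0.0509 with the mouse of mixed labels as a responder. For the difference between tag series 194 genes were called without the 7 mice with a library that stood apart. Of these, 180 were higher and 14 lower in the 4-digit series, against 136 lower with all mice. On TPM the signs of Treml4 (-0.064), Xbp1 (-0.053), Ctla4 (-0.0096), Gbp7 (-0.021), H2-Q7 (-0.12), Nlrc5 (-0.038), H2-DMb1 (-0.062), Dnaja1 (-0.030) and Cxcr3 (-0.12) reversed. In the 4-digit series alone those of Cd3d (0.00020), Siglecf (0.038), Igfbp4 (0.024), Prf1 (0.039), Nkg7 (0.12), Gzma (0.14), Tbx21 (0.17), Foxp3 (0.010), Calr (0.075) and H2-DMb1 (-0.047) did, and with the haemoglobin share as a covariate that of Hbb-bt (-0.049). Single values in the 4-digit series alone were 1.92 for the haemoglobin share, 0.143 for the mitochondrial share (reversed), 2.25 for the switched isotype share (p = 0.0156, the smallest an exact test of 7 mice can give, adjusted p = 0.078) and 0.00726 for the Simpson index of Trbv segments. On TPM the Simpson difference was 0.000976 for Ighv (adjusted p = 0.0155) and 0.00237 for Trbv segments. The cause of these shifts was not tested. Low counts limit the antibody and keratin genes, since Ighg1 stood under 0.5 CPM in every Day 4 library.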

Other observations

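Several further gene groups were read in the same 29 non-responders. Of 16 chemokine receptors 6 were higher and 4 lower, against 20.8% and 23.4% of all genes (median 0.06, and -0.08 on TPM). Cxcr4, which holds cells in the marrow, went from 12.7–42.3 CPM (median 23.0) to 24.0–52.7 CPM (median 35.7), with a log2 fold change of 0.60 ± 0.08 (adjusted p = 3.08e-07 by edgeR), and Ccr1, a receptor of neutrophils and monocytes, from 2.80–9.04 CPM (median 6.06) to 4.91–32.0 CPM (median 9.82), with a log2 fold change of 0.73 ± 0.12, both higher in 26 of 29 mice, while Ccr9, a receptor of gut-homing lymphocytes, had a log2 fold change of -0.34 ± 0.07. Nonclassical monocyte genes were higher in 4 of 8 cases and lower in 1 (median 0.18, and -0.13 on TPM). Cd36, a scavenger receptor, went from 5.87–20.9 CPM (median 10.1) to 9.70–31.0 CPM (median 18.0), with a log2 fold change of 0.75 ± 0.13, and Treml4 had 0.32 ± 0.09. Dendritic cell genes were higher in 2 of 9 and lower in 1 (median 0.18, and -0.04 on TPM), with Zbtb46, a transcription factor of conventional dendritic cells, at 0.52 ± 0.16. Among 7 genes of immature neutrophil granules, 3 were higher, among them Lcn2, lipocalin-2 (0.55 ± 0.19), and Cebpe, the transcription factor of granule genes, was lower, from 0.151–1.43 CPM (median 0.596) to 0.0470–1.32 CPM (median 0.252), with a log2 fold change of -0.96 ± 0.20 (adjusted p = 0.000251; -1.27 in the 3-digit and -0.04 in the 4-digit mice). The summed granule list had medians of 33.6 and 36.6 CPM on Day 4 and Day 17 in the 3-digit mice and of 13.4 and 33.6 in the 4-digit mice. Of 4 light-chain constant genes 2 were lower, with Igkc, the kappa chain, at -0.29 ± 0.07.

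The proliferation list described above had a median of 0.08 (-0.04 on TPM). Nusap1, a spindle protein, went from 10.1–56.7 CPM (median 21.7) to 12.8–87.3 CPM (median 41.9), with a log2 fold change of 0.76 ± 0.19 (adjusted p = 0.00129), and Ube2c, a ubiquitin enzyme of mitosis, from 13.3–102 CPM (median 32.6) to 28.3–125 CPM (median 59.0), with a log2 fold change of 0.64 ± 0.18. The 6 subunits of the replicative helicase, Mcm2 to Mcm7, were chosen after their values were seen, and all 6 were lower, from -0.34 ± 0.05 for Mcm3 to -0.15 ± 0.04 for Mcm7. Endoplasmic reticulum stress genes were lower in 7 of 20 cases and higher in 1, with Calr, calreticulin, at -0.27 ± 0.07 (0.07 in the 4-digit mice). In the 4-digit series alone 5 of the 20 were higher and 0 lower, and the summed list had medians of 280.28 CPM on Day 4 and 314.25 on Day 17 there and of 286 and 261.04 in the 3-digit mice. Nuclear genes of the respiratory chain were lower in 19 of 75 and higher in 7, where 23.4% of all genes tested were lower and 20.8% higher, with Cox7b, a small subunit of cytochrome oxidase, at 0.56 ± 0.11.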
